A study of Homo sapiens with 3 samples.

Results

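Of 7 genes known for upstream open reading frames (uORFs) and tied to the stress response, ATF4, ATF5, DDIT3, PPP1R15A, PPP1R15B, SLC35A4 and IFRD1, only ATF4 and IFRD1 carried listed ribosome peaks on their own strand of the mRNA in HEK293T cells. ATF4 peaks were confined to the coding sequence of its canonical transcript in the 3 lists, and IFRD1 peaks lay in and around the first exon. The genes were chosen by name, and a peak was given to a gene through the RefSeq transcript in its annotation, or through the nearest gene where that transcript did not map to it. By this rule 51 of 46819 listed peaks belonged to the 7 genes, of which the vector library gave 19, the wild-type DDX3X library 20 and the G325E library 12. Groups of 3 values are given in that order throughout.

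HEK293T is a human embryonic kidney line. It was transfected for 24 h with empty pCDNA3.1 vector, FLAG-tagged wild-type DDX3X, an RNA helicase, or FLAG-tagged G325E, a DDX3X mutant found in medulloblastoma, and ribosome-protected fragments were sequenced from 1 library per construct. All 3 groups kept their own DDX3X gene and, per the labels, received harringtonine at 2 µg/ml for 90 s and then cycloheximide at 100 µg/ml, whereas the methods of the study mention cycloheximide alone. Each deposited list gives peak positions without heights or read counts, so numbers of peaks are described with no test. The read totals that the study tabulates were not used, and after removal of duplicates they put wild-type deepest and G325E shallowest. Matched RNA levels were not used here, so more or fewer peaks on a gene could not be told apart from more or less of its mRNA.

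The lists held 11219, 19920 and 15680 peaks, with median lengths of 30, 30 and 31 nt and a mean GC content of 62.7%, 62.2% and 73.1% in the 31 nt around each midpoint. Peaks were numbered in genome order, and 14.8% of the numbers in vector and 13.5% in wild-type were skipped against 0% in G325E. DDX3X, the transfected gene, had 0, 32 and 9 peaks. The label calls the cells neuronal. Of 15 neuronal markers 3 (TUBB3, NEFL and NEFM) had a peak on their mRNA in each list and the defining RBFOX3 and MAP2 had 0, with 31, 35 and 51 listed peaks over the marker list. Of 8 kidney or epithelial markers 0, 2 and 1 had one, with 0, 23 and 5 listed peaks. Over all genes with a canonical transcript 9.07%, 13.8% and 11% had a same-strand peak on the mRNA.

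A uORF is a short reading frame that begins at an AUG in the 5′-UTR, where scanning ribosomes meet it before the main start codon. When eIF2 is phosphorylated under stress, ternary complex becomes scarce, ribosomes pass inhibitory uORFs more often, and translation of mRNAs such as that of ATF4 is favoured while most translation falls. ATF4 then activates genes of amino acid supply and, with DDIT3 (CHOP), genes of the unfolded protein response, and PPP1R15A (GADD34) directs a phosphatase back onto eIF2. This is background and was not measured here.

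Upstream AUGs were read from the canonical mRNA of each gene in GRCh37. Each of the 7 had at least 1, as did 42.7% of 19058 canonical transcripts with a 5′-UTR. ATF4, ATF5 and DDIT3 each had a frame that ran past the main start codon. The windows that follow are those of ATF4, whose frames had no peak, and of IFRD1, whose frame had peaks. The ATF5 window holds an upstream AUG overlain only by a peak on the opposite strand. Each window is 21 bases of the sense strand with the AUG, written ATG, in capitals.
ATF4 start codon, chr22:39917442-39917462, plus strand: caccgcaacATGaccgaaatg
ATF4 upstream AUG 1, chr22:39916582-39916602, plus strand: cgcccacagATGtagttttct
ATF4 upstream AUG 2, chr22:39916644-39916664, plus strand: acggccaccATGgcgtattag
ATF4 upstream AUG 3, across an exon junction between chr22:39916743 and chr22:39917365, plus strand: gcttaagccATGgcgcttctc
IFRD1 start codon, chr7:112090735-112090755, plus strand: cgtcccacgATGccgaagaac
IFRD1 upstream AUG 1, chr7:112090533-112090553, plus strand: gagagaaacATGtatcgtttt
ATF5 upstream AUG 1, chr19:50432522-50432542, plus strand: gccccggccATGgctctgtag

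Positions on an mRNA count the A of the main start codon as 0. In ATF4 the first upstream AUG, at −258, was followed at once by a stop codon. The second, at −196, opened 3 codons, and the third, at −97, opened 59 codons that ended at +82 inside the coding sequence. IFRD1 had a single upstream AUG, at −202, with a frame of 52 codons that ended at −44. The other genes had 2 upstream AUGs in ATF5, 3 in DDIT3, 2 in PPP1R15A, 2 in PPP1R15B and 11 in SLC35A4, whose first frame was the longest of these genes at 103 codons.

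**Figure D1:**
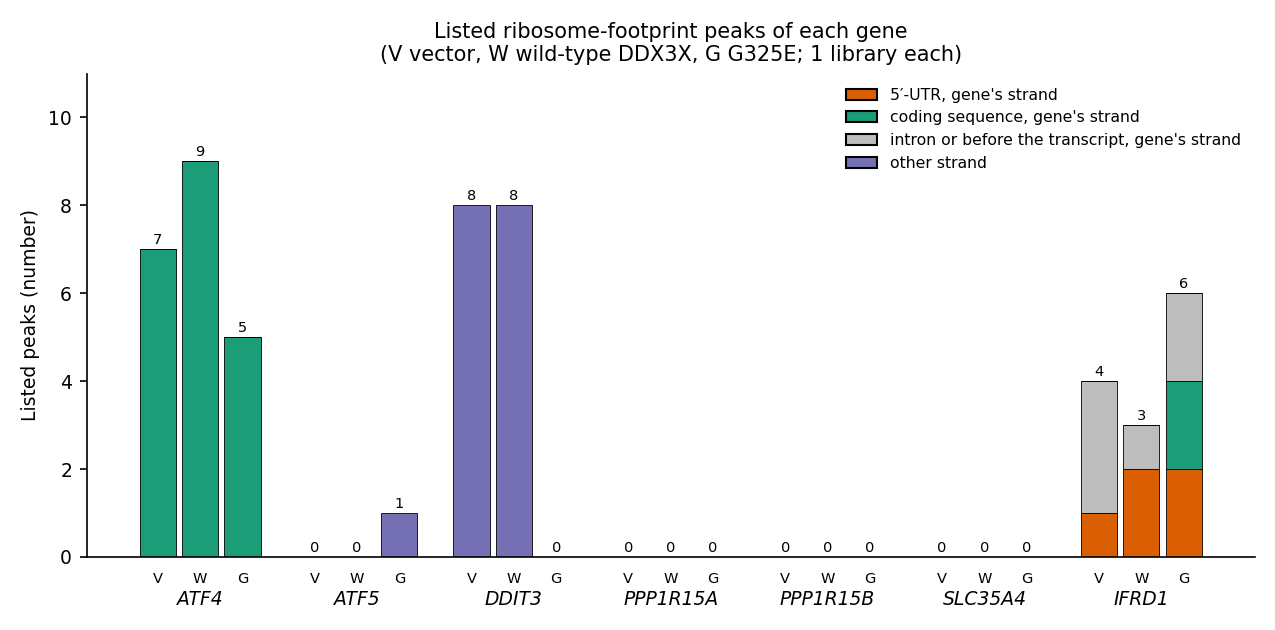
Number of listed ribosome-footprint peaks (vertical axis) for each gene in vector (V), wild-type DDX3X (W) and G325E (G), 1 library each, split by place on the canonical transcript and by strand. ATF4 bars of 7, 9 and 5 are all coding, DDIT3 bars of 8, 8 and 0 are all on the other strand, and PPP1R15A, PPP1R15B and SLC35A4 are at 0.

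A same-strand peak on the mRNA was found for ATF4 and IFRD1, 2 of the 7 genes, in each list. Over 19528 genes with a canonical transcript the share was 9.07%, 13.8% and 11%. Of the 2 genes, IFRD1 had a peak in the 5′-UTR in every list, where the share among genes with a peak on the mRNA was 31.9%, 32.9% and 54.1%. A peak over the start codon was listed for 0, 0 and 1 of the 2, and the 1 was IFRD1 in G325E. The share over all such genes was 37.2%, 36% and 50.5%.

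ATF4 is the transcription factor at the centre of the integrated stress response. Its transcript lies at chr22:39916567-39918688 on the plus strand, with 3 exons, a 5′-UTR of 282 nt and a coding sequence of 351 codons. It had 7 peaks in the vector list, 9 in the wild-type list and 5 in the G325E list, or 6.24, 4.52 and 3.19 per 10000 listed peaks. All 21 were on the plus strand and in the coding sequence, and none overlapped any of the 3 upstream frames. No peak number was skipped around the gene in vector or wild-type, so the empty 5′-UTR holds for those lists as numbered. The G325E list skips no number anywhere, so this check cannot inform on it.

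The ATF4 peaks began well inside the coding sequence. The midpoint of the first lay in codon 133 for vector, codon 79 for wild-type and codon 132 for G325E. Wild-type thus had listed peaks nearer the start codon than the other lists, namely at codons 79 and 106. After a peak near codon 133, vector had peaks centred on codons 209 and 231 and wild-type on codons 193, 210 and 231, a stretch in which G325E had none. From codon 287 on, the 3 lists ran close together, with 4, 3 and 4 peaks up to codon 345. Peaks covered 31%, 36.3% and 20.4% of the coding bases.

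All 5 G325E peaks of ATF4 overlapped a peak in each of the other lists by at least 1 base. The vector and G325E lists shared a peak with both ends the same, listed as chr22:39918564-39918603 and 41 nt long with the base before the listed start. Each of the 7 vector peaks overlapped one of wild-type, in which 6 of the 9 did so in turn. The share of overlapping peaks over all genes is not given here, so whether this is usual for the lists cannot be told. Each peak lay in an exon of 10 or 11 of the 11 protein-coding transcripts of ATF4. The wild-type peak centred on codon 79 lay in the 5′-UTR of 1 of these transcripts. The median GC content of the ATF4 peaks was 58.1%, 54.8% and 54.8%, under the mean of each whole list.

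**Figure D2:**
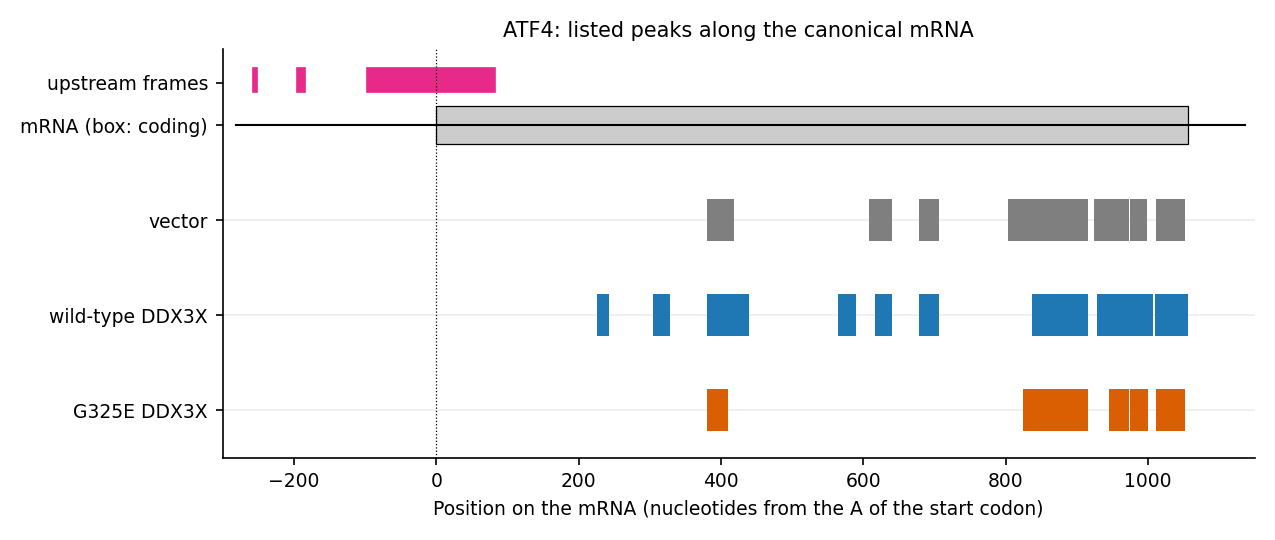
Peaks of ATF4 along its canonical mRNA (horizontal axis, nucleotides from the A of the start codon) in the 3 libraries, with the upstream frames and the coding sequence above. No block lies over the upstream frames, and the 5 G325E blocks each lie under a vector and a wild-type block.

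After scaling the lists to the same number of gene-assigned peaks, ATF4 had 0.706 times as many peaks in G325E as in wild-type (95% exact interval 0.186–2.35, counting error only). The ratio was 0.511 for G325E against vector (0.128–1.87) and 0.724 for wild-type against vector (0.24–2.29). None reached the 2-fold used to call a difference. Over the 6 numbers of 5′-UTR and coding peaks in the 3 lists, unscaled, the genes nearest to ATF4 among 1624 genes with at least 10 peaks were MRPL58, PYCR1 and ACLY, at distances of 1, 1 and 1.41 peaks. MRPL58 had 7, 9 and 4 coding peaks, PYCR1, an enzyme of proline synthesis, 7, 9 and 6, and ACLY, which makes cytosolic acetyl-CoA, 8, 10 and 5, with no 5′-UTR peak in any of them.

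IFRD1, a regulator of transcription, was the gene with listed peaks on a uORF. Its transcript lies at chr7:112090515-112117258 on the plus strand, with 12 exons, a 5′-UTR of 229 nt and 451 codons. It had 4, 3 and 6 peaks, all on the plus strand. In the 5′-UTR there were 1, 2 and 2, and in the coding sequence 0, 0 and 2.

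The 5′-UTR peak of vector ran from −117 to −54. Wild-type had a peak from −160 to −121 and another from −115 to −37. G325E had them from −160 to −132 and from −113 to −57. Each of these 5 peaks overlapped the 52-codon upstream frame whose AUG is printed for IFRD1, and none of them covered that AUG at −202. They lay in exons of 5 or 7 of the 13 protein-coding transcripts of IFRD1, and on the one with the longest 5′-UTR the 5′-UTR peaks were 1, 1 and 1. Each library had a peak of this kind between −117 and −37, and wild-type and G325E had a further peak that began at the same base, −160.

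The coding peaks of IFRD1 were in G325E alone. The first ran from −30 to +43 across the start codon, and the second from +47 to +93, which is the last base of exon 1. Placed by its 5′ end, the first would count as a 5′-UTR peak. The vector list skips 2 numbers between 11517 and 11520. Because numbers follow genome order, the skipped entries fall in the 417 bases from −53 to +363, counted along the genome. The wild-type list skips 2 numbers between 20119 and 20122, in the 401 bases from −36 to +364, whereas the G325E list skips none anywhere. Most of each stretch lies past exon 1, in an intron of the canonical transcript, and what the skipped entries held is not known. Whether vector and wild-type had peaks at the IFRD1 start codon can therefore not be read from the lists. Of 598 genes whose start codon was covered in G325E and not in vector, 264 (44.1%) had a number skipped in the vector list between the listed peaks on either side of it. Against wild-type there were 249 of 477 (52.2%). No share for other genes stands beside these 2 shares, and a gap between listed peaks could have any length. They therefore do not show that skipped numbers gather at start codons.

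**Figure D3:**
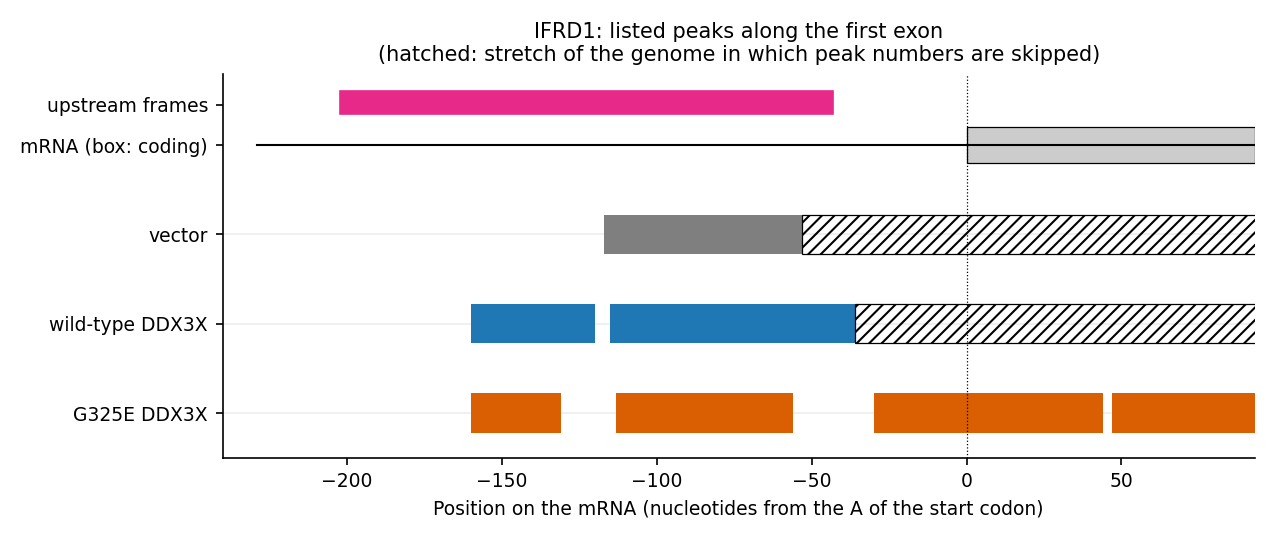
Peaks of IFRD1 along exon 1 of its canonical mRNA (horizontal axis, nucleotides from the A of the start codon), with the upstream frame above. Hatching marks the stretch in which 2 peak numbers are skipped in vector and in wild-type, which runs on past exon 1 into an intron. The G325E peaks from −30 to +43 and from +47 to +93 lie within the span of these stretches.

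Beyond exon 1 no list had a peak in any later coding exon of IFRD1, although the vector list skips 3 numbers in the 4502135 bases that follow its last peak there. The other peaks were 2, 1 and 1 within an intron of the canonical transcript, and 1, 0 and 1 before its first base. Those before its first base each lay in the 5′-UTR of 2 of the 13 protein-coding transcripts. Wild-type and vector each had an intron peak of 29 nt, placed 1 base apart, which lay in an exon of 1 protein-coding transcript. The coding sequence has a GC content of 43.8% and exon 1 of 63.8%. The windows around the mRNA peaks ranged from 61.3% to 71% in wild-type and from 58.1% to 80.6% in G325E, and the 1 in vector had 77.4%. The part that GC content has in where IFRD1 peaks were listed was not tested.

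IFRD1 had 2.54 times as many scaled peaks in G325E as in wild-type (95% exact interval 0.543–15.7), which was called at least 2-fold more, and 26% of 2527 genes were called so. In G325E against vector the ratio was 1.07 (0.255–5.17), with no call, where 33.9% of 2066 genes were called more and no member was. It was 0.422 in wild-type against vector (0.0619–2.5), which was called fewer, as were 17.4% of 2190 genes. That last call was lost with no scaling and with median scaling. An alternative added once the data had been seen counted skipped numbers as peaks of IFRD1. It took the 2 in the stretch that holds the start codon in vector and the 2 in wild-type. The ratio of G325E to wild-type was then 1.52 and its call was lost. The other ratios were 0.716 and 0.469 with calls as before. No member was called more in wild-type over vector, against 27.9% of genes. All 3 intervals include 1, and both calls count peaks before the canonical transcript and in its intron.

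DDIT3, the transcription factor CHOP, had 8, 8 and 0 listed peaks, and none of them was on its mRNA. The gene is on the minus strand at chr12:57910376-57914297. All 16 peaks were on the plus strand beyond its 3′ end, in the class of transcription termination sites. They lay on MARS1, the cytosolic methionyl-tRNA synthetase, whose last exon overlaps the last 60 nt of DDIT3 on the other strand. In each list 6 of the 8 lay in MARS1 coding sequence, in exons 19, 20 and 21 of 21, from codon 798 to 894 in vector and from codon 799 to 893 in wild-type, and the other 2 had their midpoints in an intron.

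By the assignment rule DDIT3 was called fewer in G325E against wild-type, at least 2.1-fold with the floor at 3 peaks, as were 28.7% of genes. Against vector it was at least 3.73-fold fewer, as were 22.7% of genes. The peaks behind these calls are on the strand of MARS1, which had 8, 12 and 0 same-strand coding peaks over its whole length. No numbers were skipped around DDIT3 in vector or wild-type. The G325E list skips no number anywhere, so this check cannot inform on its absent peaks. Of the wild-type peaks 7 of 8 overlapped vector peaks, 3 of them with both ends the same, again with no share over all genes beside it. Neither the 3 upstream frames nor the 169 codons of DDIT3 held a listed peak in any library.

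**Figure D4:**
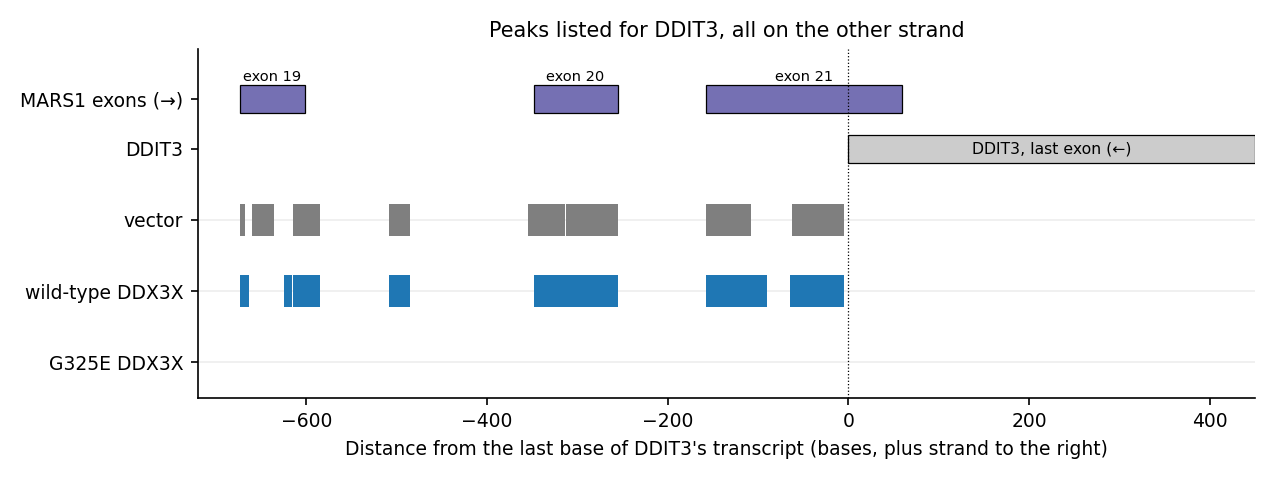
Peaks listed for DDIT3 by distance in bases from the last base of its transcript (0), with the exons of MARS1, which is read to the right, and the last exon of DDIT3, which is read to the left. The 8 vector and 8 wild-type peaks lie left of 0, most of them over MARS1 exons 19, 20 and 21, and G325E has none.

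ATF5, a transcription factor related to ATF4, had 0, 0 and 1 listed peaks. The gene is on the plus strand at chr19:50432462-50437192, with 282 codons and a 5′-UTR of 315 nt. The G325E peak, listed as chr19:50432513-50432540, was on the minus strand and spanned −265 to −237 of ATF5, over the first upstream AUG at −246. It lay in an intron of the canonical transcript of NUP62, a nuclear pore protein gene read in the opposite direction. By position alone, opposite-strand peaks over ATF5 numbered 0, 2 and 5. NUP62 itself had 0, 10 and 12 same-strand coding peaks, and 0, 2 and 3 in its 5′-UTR. The second frame of ATF5, 59 codons from −124 to +55, had no same-strand peak in any list.

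PPP1R15A and PPP1R15B are the inducible and the constitutive subunits that direct protein phosphatase 1 to eIF2. Neither had a listed peak in any library. PPP1R15A lies at chr19:49375678-49379315 on the plus strand with 674 codons, and PPP1R15B at chr1:204372509-204380945 on the minus strand with 713 codons. No number was skipped around PPP1R15A in vector or wild-type, and the G325E list skips none anywhere. Around PPP1R15B 1 number was skipped in vector and 1 in wild-type, in gaps of 2412532 and 1921971 bases that hold the gene, so these skips cannot be placed on it. SLC35A4, of a family of nucleotide sugar transporters, lies at chr5:139944413-139948685 on the plus strand with 324 codons, and also had 0 peaks in each list. Around it, too, no number was skipped in vector or wild-type.

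Over the 7 genes, 5′-UTR peaks were 1 of the 8 in the 5′-UTR or coding sequence in vector, 12.5% (95% Wilson interval 2.24–47.1). They were 2 of 11 in wild-type, 18.2% (5.14–47.7), and 3 of 10 in G325E, 30% (10.8–60.3). On the gene's strand alone, without the ATF5 peak, the G325E share was 22.2% (6.32–54.7). Over all genes the shares were 14.1%, 15.2% and 29.8%, inside the wide intervals of the members. The intervals cover counting error only, and peaks of 1 gene are not independent of each other.

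The wider pathway was read from lists of related genes. Of the 4 eIF2 kinases, 2, 1 and 2 had a same-strand peak on the mRNA, against 9.07%, 13.8% and 11% over all genes. EIF2AK1, the haem-regulated kinase, had 1 peak in the 5′-UTR in each list and 4, 4 and 1 in the coding sequence. EIF2AK2 (PKR), activated by double-stranded RNA, had 1, 0 and 2 in the 5′-UTR and 1, 0 and 0 in the coding sequence. EIF2AK3 and EIF2AK4 had none in any list. None of the 2 kinases compared was called 2-fold different between any libraries. Over all genes 26% were called more and 28.7% fewer in G325E against wild-type. Against vector the shares were 33.9% and 22.7% for G325E, and 27.9% and 17.4% for wild-type. With 2 genes, the absence of calls says little about the kinases.

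Of the 10 genes for eIF2 subunits and start-codon factors, 4, 6 and 3 had a peak on the mRNA (9.07%, 13.8% and 11% over all genes). EIF1, which guards start codon choice, had 0, 15 and 5 listed peaks, of which 0, 2 and 3 lay in the 5′-UTR and 0, 4 and 0 in the coding sequence. EIF1AX had 2, 2 and 3 in the 5′-UTR and 1, 1 and 0 in the coding sequence. These are placed by midpoint, and a peak covered the start codon of EIF1 in wild-type and G325E and of EIF1AX in each list. In G325E against wild-type 0 of 4 genes compared were called more and 2 fewer, where the shares over all genes were 26% and 28.7%. Against vector the direction differed, with 1 of 3, EIF1, called more and 0 fewer (33.9% and 22.7% over all genes). In wild-type against vector 1 of 5 was called more and 1 fewer (27.9% and 17.4%). None of the 5 eIF2B subunits, which recharge eIF2 with GTP, had a peak in any list.

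The 3 catalytic subunits of protein phosphatase 1, partners of PPP1R15A and PPP1R15B, had listed peaks although those subunits had none. On the mRNA 2, 3 and 3 of them had one (9.07%, 13.8% and 11% over all genes). PPP1CB had 1, 3 and 2 peaks in the 5′-UTR and 1, 1 and 1 in the coding sequence, and PPP1CC had 0, 0 and 2 in the 5′-UTR and 0, 1 and 1 in the coding sequence. In G325E against wild-type 2 of 3 were called more and 0 fewer (26% and 28.7% over all genes). Against vector it was 1 of 3 more and 0 fewer (33.9% and 22.7%), and in wild-type against vector 0 of 2 more and 2 fewer (27.9% and 17.4%).

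Of 20 ATF4 targets, 19 had a canonical transcript and 10, 13 and 10 of those had a peak on the mRNA (9.07%, 13.8% and 11% over all genes). A 5′-UTR peak was listed for 5, 5 and 7. Among all genes with a peak on the mRNA that share was 31.9%, 32.9% and 54.1%, so it too was highest in G325E. In G325E against wild-type 2 of 11 compared were called more and 2 fewer (26% and 28.7% over all genes). Placement used position and calls used the assignment rule, so a target with 0, 3 and 5 coding peaks by position was not compared. Against vector 1 of 9 was called more and 2 fewer (33.9% and 22.7%), and in wild-type against vector 2 of 11 were called more and 6 fewer (27.9% and 17.4%). ATF3, a stress-induced transcription factor, had 1, 2 and 6 listed peaks, with 0, 0 and 3 in the 5′-UTR and 1, 1 and 0 in the coding sequence. It was called more in G325E against both, with no coding peak listed there. CEBPB, a partner of ATF4 and DDIT3, had 10, 8 and 22, with 1, 1 and 3 in the 5′-UTR and 4, 3 and 9 in the coding sequence. SESN2, a leucine-sensing inhibitor of mTORC1 signalling, had 13, 9 and 0, with 8, 0 and 0 in the 5′-UTR and 2, 8 and 0 in the coding sequence. SLC3A2, the heavy chain of amino acid transporters, had 17, 8 and 7, and its light chain SLC7A5 had 6, 7 and 10. PSAT1 and PSPH, enzymes of serine synthesis, had 4, 3 and 4 and 3, 7 and 5, with 2, 1 and 2 and 1, 2 and 1 in the 5′-UTR, and neither was called different in G325E against either library. VLDLR, a lipoprotein receptor, had 0, 5 and 4, with 0, 0 and 1 in the 5′-UTR.

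Of 9 other genes known for uORFs, 3, 5 and 4 had a peak on the mRNA (9.07%, 13.8% and 11% over all genes). One in the 5′-UTR was listed for 3, 3 and 3 (31.9%, 32.9% and 54.1% of all genes with a peak on the mRNA). MDM2, the ubiquitin ligase of p53, had 6, 4 and 4 peaks in the 5′-UTR. It had none with its midpoint in the coding sequence, although a peak covered its main start codon in each list. UCP2, a mitochondrial carrier, had 1, 3 and 1 in the 5′-UTR and none with its midpoint in the coding sequence or over the start codon. HSPA5, the chaperone BiP of the endoplasmic reticulum, had 3, 4 and 3 in the 5′-UTR and 19, 23 and 4 in the coding sequence, and was called fewer in G325E against both. In G325E against wild-type 1 of 4 was called more and 1 fewer (26% and 28.7% over all genes), as was the case against vector (33.9% and 22.7%). In wild-type against vector 0 of 3 were called more and 1 fewer (27.9% and 17.4%).

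**Figure D5:**
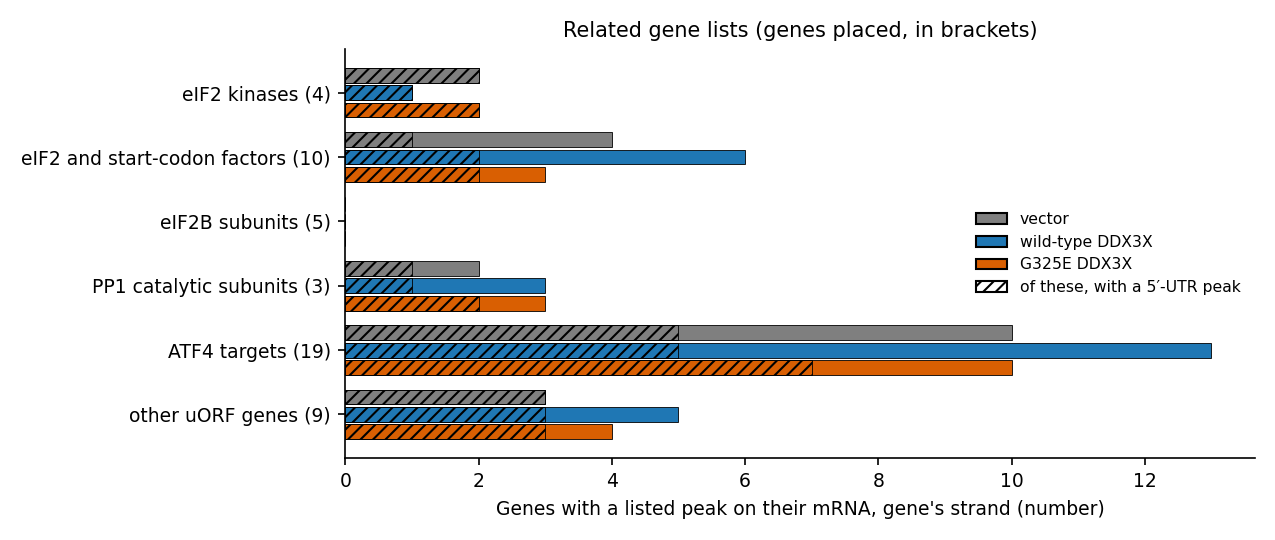
Number of genes of each related list (horizontal axis) with a same-strand peak on the mRNA in vector, wild-type DDX3X and G325E, with the hatched part showing those with a 5′-UTR peak. The eIF2B subunits are at 0, and the ATF4 targets reach 10, 13 and 10 of 19.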

How the data were processed

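Ribosome profiling of HEK293T cells gave 1 library each for vector, wild-type DDX3X and G325E, grouped by sample title. The deposited files are lists of peak positions, in another unit than a level, that the authors called in each sample from base coverage after cutadapt and BWA 0.5.5 alignment to hg19, then refined and reviewed by eye. Annotation columns have the HOMER layout, in a version not given in the sources used here. No comparison columns of the authors were used.

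Listed starts met an exon's first base in 74 of 46819 peaks and the base after it in 5611, whereas listed ends met an exon's last base in 5750. The first base of a peak was therefore taken as 1 before its listed start. Coordinates of peaks are printed as listed. Peaks whose end precedes their start (163, 272 and 236) were kept as single bases.

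Midpoints were placed on the canonical transcript of GENCODE release 44 lifted to GRCh37, whose chromosomes have the names and lengths of hg19. Older symbols were matched through the gene tables supplied. Placement of list genes and of background shares used position and strand, and 2-fold calls used the assignment rule, peak numbers scaled to the same total of gene-assigned peaks, and genes with at least 5 peaks in the 2 libraries together. Intervals are 95% Wilson or exact and cover counting error only. With no replicates there was no test. Named genes were the 7 members, genes of the related lists with a 5′-UTR peak in any library (counts otherwise), the 3 genes most like ATF4, markers and DDX3X, and MARS1, NUP62, EIF2AK3 and EIF2AK4 were named after their values were seen. Members and lists were chosen with earlier results of these data known. Scripts were checked on simulated positions. Alternatives changed placement, assignment, strand, transcript, scaling and the peak minimum. The scripts ran under pysam 0.24.0, pandas 2.3.3, matplotlib 3.10.9, scipy 1.17.1 and numpy 2.4.6 in Python 3.11.15.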

Additional observations from a re-analysis of the deposited data

Results flagged for a closer look

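A listed peak stood on the strand opposite to ATF5 in G325E, outside the same-strand placement, where vector and wild-type had 0 by the assignment rule. There was 1 such peak by that rule, and by position alone there were 0, 2 and 5 in vector, wild-type and G325E. The 1 lay over the first upstream AUG of ATF5 and in an intron of NUP62 on that gene's own strand. Its part in ATF5 translation was not tested.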

How the results depend on the processing

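No paired analysis was possible because each construct had 1 library, and no library could be left out for the same reason. Placing peaks by either end, taking the gene from its listed name alone or from genome position, using only the gene's strand, dropping single-base peaks, weighting by length or, as chosen after seeing the data, keeping the listed starts left every total over the 7 genes within 1.5 times and every 5′-UTR share within its interval. With the class given in the lists, which counts promoter peaks as upstream, 5′-UTR peaks of the members became 4 in vector and 5 in G325E. On the transcript with the longest 5′-UTR, wild-type had 1, and IFRD1 in G325E went from 2 to 1. Placed by the 5′ end, IFRD1 coding peaks in G325E went from 2 to 1. By genome position, ATF5 5′-UTR peaks went from 0 to 1 in wild-type and from 1 to 2 in G325E. None of these was on the strand of ATF5, and with only the gene's strand the G325E number was 0. Genes called fewer in wild-type against vector went from 381 to 94 with no scaling and to 124 with median scaling. With at least 2 peaks together, 1260 were called fewer in G325E against wild-type (725 with 5), 748 fewer in G325E against vector (469), and 1060 more in wild-type against vector (612). With at least 10 peaks, more and fewer were 308 and 263 for G325E against wild-type, 261 and 190 for G325E against vector, and 189 and 201 for wild-type against vector. These minimums change how many genes are compared, and the cause of the other moves was not tested. The lists hold no read counts, so a gene with no listed peak may have been under the authors' coverage cut-off, and skipped peak numbers limit any reading of absent peaks in vector and wild-type.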
